A study of Mus musculus with 6 samples.

Results

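The genes described here are 10 members of the gp130 cytokine and Stat3 pathway, namely the ligands Lif, Cntf, Clcf1 and Il6, the receptor chains Il6st, Lifr, Osmr and Il6ra, the transcription factor Stat3 and its feedback inhibitor Socs3. They were taken by name, as known members of the pathway and with earlier results of these data known, from the 32371 genes of a table of RNA-Seq read counts, and all 10 were found under 1 Ensembl identifier each. The table holds 6 libraries from retinal cells of adult C57BL/6J mice of 6 to 10 weeks. The 3 GFP libraries came from mice injected intravitreally with AAV2-GFP, and the 3 Ezh2-Y726D libraries from mice injected with AAV2-Ezh2-Y726D, which carries a catalytically dead form of the histone methyltransferase Ezh2. In both groups the optic nerve was crushed (ONC) 2 weeks after injection, and CD90.2 (Thy1) positive living cells were sorted 3 days after ONC. Every library was thus both transduced and injured, and no uninjured retina was analysed here. AAV2 given into the vitreous reaches many, but not all, retinal ganglion cells (RGCs) and other cells of the inner retina, so the cells of a library were not necessarily all transduced. The sources used here do not say whether retinas were pooled or whether libraries of 1 group came from separate mice, so the p-values measure the spread between these libraries, which may be technical.

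Cytokines of the interleukin 6 family signal through the shared receptor chain gp130, the product of Il6st. Each ligand first engages its own receptor chains, Jak kinases bound to the chains phosphorylate them, and Stat3 is recruited, phosphorylated and moved to the nucleus, where it induces target genes that include its own inhibitor Socs3. In the injured retina, Lif and Cntf are known to activate this pathway in Müller glia, astrocytes and RGCs, and removal of Socs3 from RGCs is a known way to promote optic nerve regeneration. RNA levels do not measure phosphorylation of Stat3, which is the step that switches the pathway on.

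The libraries held between 9333244 and 23782520 counts. The rRNA gene CT010467.1 took between 2.55% and 52.2% of them, with 50.9% and 52.2% in GFP replicates 2 and 3, which left these libraries with the fewest other counts (5745352 and 4460732). Ezh2, which the vector supplies in the Ezh2-Y726D group, had a normalised read count (CPM, scaled by edgeR's TMM factors) of 22.7, 23.9 and 26.4 in GFP and of 65.2, 65.6 and 65.2 in Ezh2-Y726D. RGC markers such as Slc17a6 and Nefl were present, but their sum over 8 markers (413 to 449 CPM over all libraries) was far below that of 6 Müller glia markers (6807 to 7205 CPM) and 4 rod markers (4700 to 4825 CPM in GFP and 5271 to 5405 CPM in Ezh2-Y726D, with 2 markers higher), so the sorted cells were not RGCs alone. In such bulk samples, fewer cells of a type and less RNA per cell cannot be told apart.

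The receptor Il6st, the transducer Stat3 and the feedback gene Socs3 were the most abundant members, and Il6 and Cntf the least. Levels are compared between genes as CPM per kb of exon, which takes all annotated exons of a gene as its length and so understates genes with long rarely used exons. In GFP, Il6st stood at 24.9 ± 0.99 CPM per kb (SD, n = 3), Stat3 at 22.7 ± 0.887 and Socs3 at 20.9 ± 0.703. These were followed by Osmr at 10.2 ± 0.469, Lifr at 6.82 ± 0.101, Lif at 2.19 ± 0.063, Clcf1 at 1.22 ± 0.127 and Il6ra at 1.08 ± 0.143 CPM per kb. Il6 (0.14 ± 0.0934 CPM per kb) and Cntf (0.0728 ± 0.064 CPM per kb) were close to the limit of detection. Among neighbours in this order, the ranges of the 3 GFP libraries overlapped for Clcf1 and Il6ra and for Il6 and Cntf, and for no other pair.

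The order changed in Ezh2-Y726D at a few places. Il6st (23.5 ± 0.224 CPM per kb) was still first, and Socs3 (22.5 ± 1.53) stood before Stat3 (20.7 ± 0.215). The ranges of Il6st and Socs3 overlapped there. Il6ra, at 0.588 ± 0.0271 CPM per kb, was separated from Clcf1 at 1.17 ± 0.134 CPM per kb, which it had overlapped in GFP. The ranges of Cntf and Il6, last in both groups, overlapped in both.

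**Figure D1:**
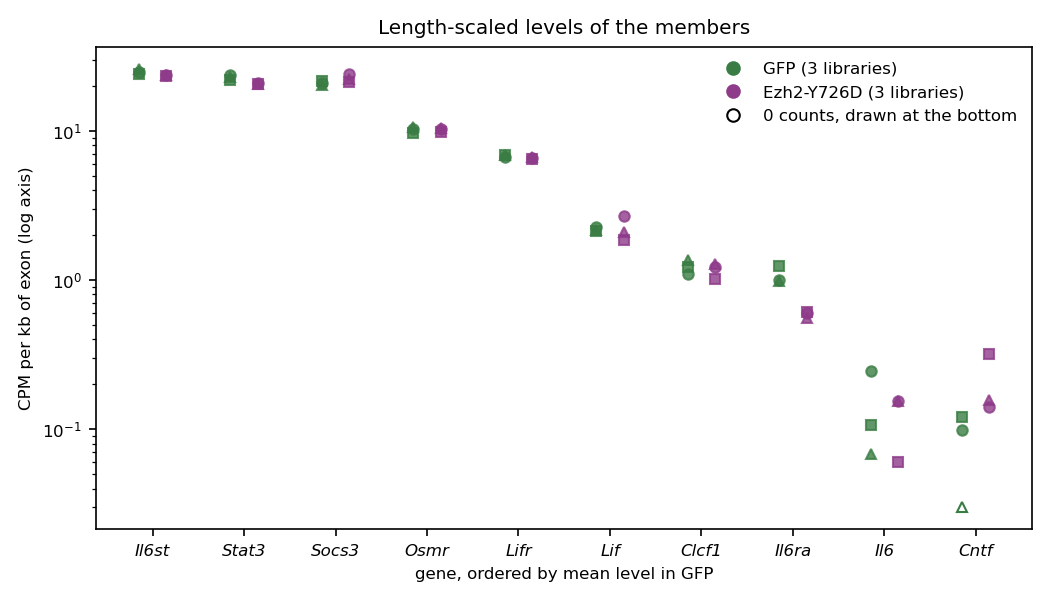
Level of each member as CPM per kb of exon on a log axis, with 1 symbol per library (circle, square and triangle for replicates 1, 2 and 3) for GFP (green) and Ezh2-Y726D (purple), ordered by the mean in GFP. Il6st, Stat3 and Socs3 lie near 20 CPM per kb in every library, Il6 and Cntf at or below 0.32, and Il6ra is the member whose groups lie farthest apart among those at or above 0.5 CPM per kb.

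The comparison of Ezh2-Y726D with GFP asks which genes changed with Ezh2-Y726D overexpression after ONC. Of the 10 members, 8 passed the filter on low counts and were tested, and 2 of these fell (edgeR's quasi-likelihood test, Benjamini-Hochberg adjusted over 18138 genes, threshold 0.05). These were Il6ra and Stat3, and no member rose. Of all genes tested, 27.5% passed in either direction, 13.6% as lower and 13.9% as higher, so 2 of 8 members is a share near the background. The median log2 fold change of the 8 members was -0.02, and that of all genes tested was 0.0019. Only Il6ra also passed a fold change of 1.5, which 8.02% of all genes tested did. The 2 groups of libraries did not overlap for 4 of the 8 members (Il6ra, Stat3, Il6st and Lifr), against 38.6% of all genes tested.

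**Figure D2:**
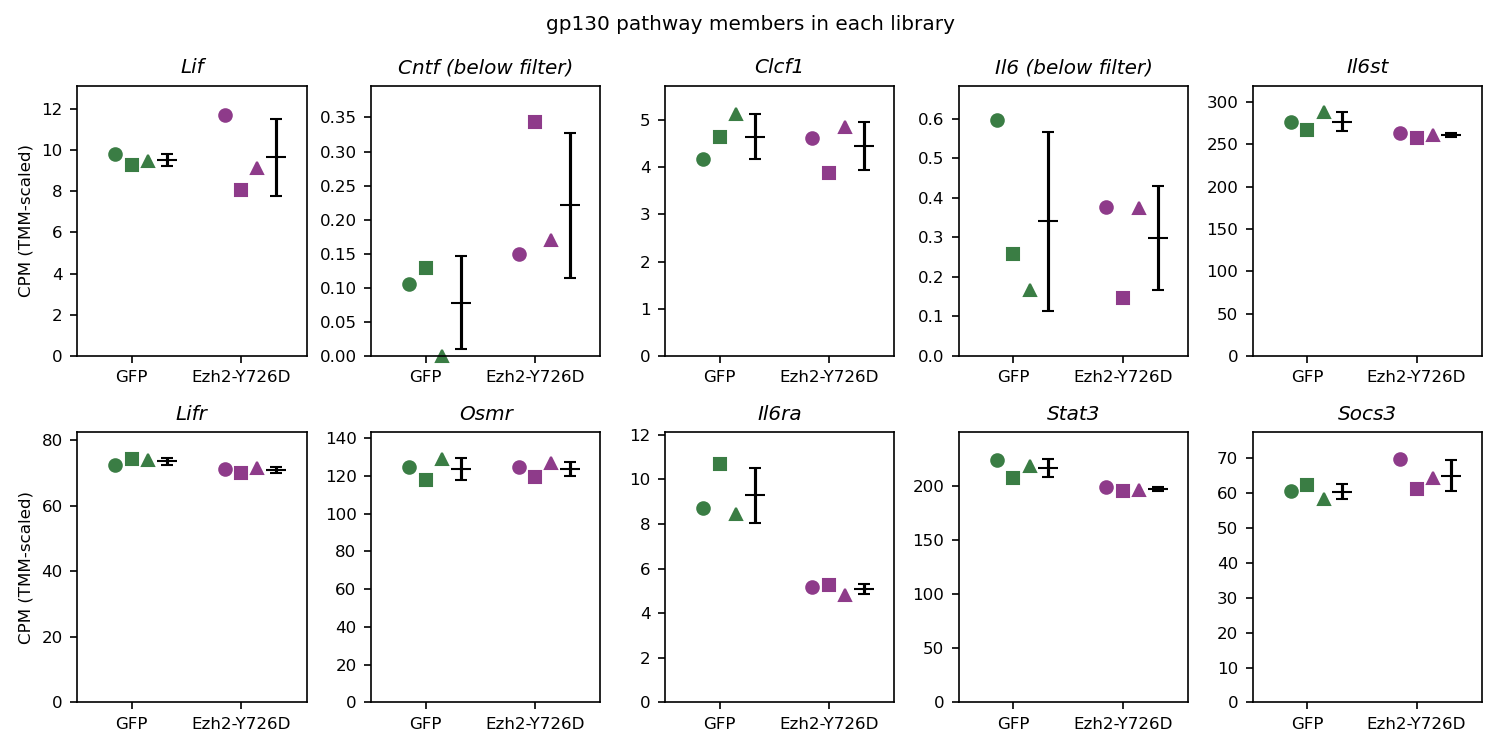
CPM of each member in the 6 libraries (circle, square and triangle for replicates 1, 2 and 3), with the mean and SD of each group (n = 3) drawn in black beside the points, and each axis starting at 0. The Ezh2-Y726D libraries lie below the GFP libraries for Il6ra (4.81 to 5.24 against 8.46 to 10.7 CPM) and, by a small step, for Stat3, while Osmr, Lif and Clcf1 overlap.

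Among the ligands, Lif and Clcf1 were measured with enough counts to be tested and neither was called. Lif, the leukemia inhibitory factor that signals through Lifr and gp130, is on chromosome 11 (chr11:4257557-4272514, GRCm38, plus strand). It was at 9.82, 9.29 and 9.45 CPM in GFP and at 11.7, 8.09 and 9.15 CPM in Ezh2-Y726D. The GFP libraries lay inside the range of the Ezh2-Y726D libraries, of which replicate 1 was the highest of all 6. The log2 fold change was 0.01 ± 0.12 (SE), with a 95% interval from -0.23 to 0.26 and an adjusted p of 0.955 in edgeR's test, so a change of Lif beyond 1.2-fold in either direction was outside the interval.

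Clcf1 encodes a cytokine that binds the Cntf receptor (chr19:4214238-4223490, plus strand). Its levels were 4.17, 4.64 and 5.14 CPM in GFP and 4.62, 3.87 and 4.85 CPM in Ezh2-Y726D. The groups overlapped, and no library stood apart. The fitted log2 fold change was 0.01 ± 0.15, with a 95% interval from -0.30 to 0.32 and an adjusted p of 0.965 in edgeR's test. Of its exonic bases, 8.17% are shared with AC109138.7 on the same strand. The signs of the fold changes of Lif and Clcf1 turned with the scaling or the library left out, and neither was called in any of those fits.

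Il6, the founding cytokine of the family (chr5:30013114-30019981, plus strand), had 17, 2 and 1 counts in GFP and 10, 3 and 11 counts in Ezh2-Y726D. These are 0.596, 0.258 and 0.166 CPM against 0.376, 0.147 and 0.373 CPM, and the groups overlapped. Cntf, the ciliary neurotrophic factor (chr19:12763660-12765632, minus strand), had 3, 1 and 0 counts in GFP and 4, 7 and 5 counts in Ezh2-Y726D, without overlap between the groups. Both genes were below the filter on low counts and were not tested in the main comparison, and no difference was detectable at this depth. Of the exonic bases of Cntf, 78.9% lie within exons of Zfp91 on the same strand, so its few counts cannot be assigned with certainty. With the filter removed, edgeR's adjusted p was 0.61 for Il6 and 0.512 for Cntf.

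The shared receptor chain and the chains for Lif and oncostatin M differed little between groups. Il6st (chr13:112464070-112510086, plus strand) was at 276, 266 and 288 CPM in GFP and at 263, 258 and 261 CPM in Ezh2-Y726D. The lowest GFP library lay just above the highest Ezh2-Y726D library. The log2 fold change was -0.09 ± 0.04, a difference of -5.74% with a 95% interval from -10.9% to -0.262%, and it was not called (adjusted p = 0.118, edgeR). It was called under library totals without CT010467.1, where the log2 fold change was -0.10 and edgeR's adjusted p 0.0485. After all libraries were thinned to the shallowest, the log2 fold change of Il6st was -0.04 (adjusted p = 0.607, edgeR). Leaving out any 1 library gave -0.11 to -0.06, and it was not called in any of these fits.

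Lifr, the Lif receptor chain (chr15:7090614-7197489, plus strand), was at 72.2, 74.2 and 74 CPM in GFP and at 71, 69.8 and 71.5 CPM in Ezh2-Y726D. The groups did not overlap, but they were separated by less than 1 CPM. Its log2 fold change was -0.05 ± 0.05 with a 95% interval from -0.14 to 0.05 (adjusted p = 0.52, edgeR). Osmr, the oncostatin M receptor chain, also lies on chromosome 15 (chr15:6813577-6874969, minus strand). It was at 125, 118 and 129 CPM in GFP and at 125, 120 and 127 CPM in Ezh2-Y726D. These groups overlapped throughout, and the 95% interval of the log2 fold change ran from -0.09 to 0.09 (adjusted p = 0.99, edgeR).

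Il6ra was the receptor chain that fell. It encodes the chain that binds interleukin 6 itself and is expressed mainly by leukocytes such as monocytes, macrophages and T cells, and by hepatocytes (chr3:89864059-89913196, minus strand). Its levels were 8.70, 10.7 and 8.46 CPM in GFP and 5.19, 5.24 and 4.81 CPM in Ezh2-Y726D. The groups were separated, and the lowest GFP library was well above the highest Ezh2-Y726D library. Il6ra fell with a log2 fold change of -0.85 ± 0.12, which is 1.8-fold lower, with a 95% interval from -1.10 to -0.60 (adjusted p = 2.96e-06, edgeR). Of its exonic bases, 2.8% overlap Gm42809 on the opposite strand. Leaving out any 1 library gave log2 fold changes between -0.94 and -0.77, all called by edgeR's test, with adjusted p-values up to 4.2e-05.

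The 300 bases around the annotated start site of Il6ra are shown because it had the largest difference of the 8 tested members. They are chr3:89913147-89913446 of RefSeq on GRCm38.p6, minus strand, from 250 bases before the start site to 50 after it. They hold no match to TTCNNNGAA, the form of site that Stat proteins are known to bind, on either strand.

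Il6ra promoter window: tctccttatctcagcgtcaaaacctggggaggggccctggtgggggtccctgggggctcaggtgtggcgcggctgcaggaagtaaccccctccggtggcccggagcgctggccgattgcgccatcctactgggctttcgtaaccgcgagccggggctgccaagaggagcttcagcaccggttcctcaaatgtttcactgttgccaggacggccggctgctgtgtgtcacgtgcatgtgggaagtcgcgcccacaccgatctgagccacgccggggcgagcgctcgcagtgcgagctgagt

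Marker genes of leukocytes fell in the same libraries as Il6ra. The counts of markers below stand beside the 13.6% of all genes tested that fell and the 13.9% that rose. Of 7 microglia markers, 5 fell and 1 rose, and their summed level was 592 to 657 CPM in GFP and 405 to 477 CPM in Ezh2-Y726D. For 6 markers of activated phagocytes, of which 5 fell and 1 rose, the sums were 290 to 327 CPM against 105 to 114 CPM. For 5 monocyte and neutrophil markers, the sums were 538 to 593 CPM against 135 to 165 CPM. In this list the 3 tested genes fell, and the neutrophil genes S100a8 and S100a9 were at or under 3 counts in every library. All 5 T cell markers fell, with sums of 76.9 to 80.8 CPM in GFP against 43.5 to 50.1 CPM in Ezh2-Y726D. Of 4 B cell markers, 2 fell, with sums of 3.98 to 5.16 CPM against 2.07 to 3.38 CPM. The sums of 8 RGC markers (418 to 430 CPM in GFP and 413 to 449 CPM in Ezh2-Y726D) and of 6 Müller glia markers overlapped between groups, with 2 RGC markers higher (Thy1, the marker of the sort, and Pou4f1), and 2 Müller glia markers lower and 1 higher. Outside leukocytes, all 3 cone markers, 4 of 5 pericyte markers and 2 of 4 endothelial markers fell. Of 5 bipolar markers, 4 fell and 1 rose. The sums of these lists, given with the processing, were lower in Ezh2-Y726D without overlap. All 5 amacrine markers and 2 of 4 rod markers rose. The part of leukocyte content, or of any other cell type, in the lower Il6ra was not tested.

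**Figure D3:**
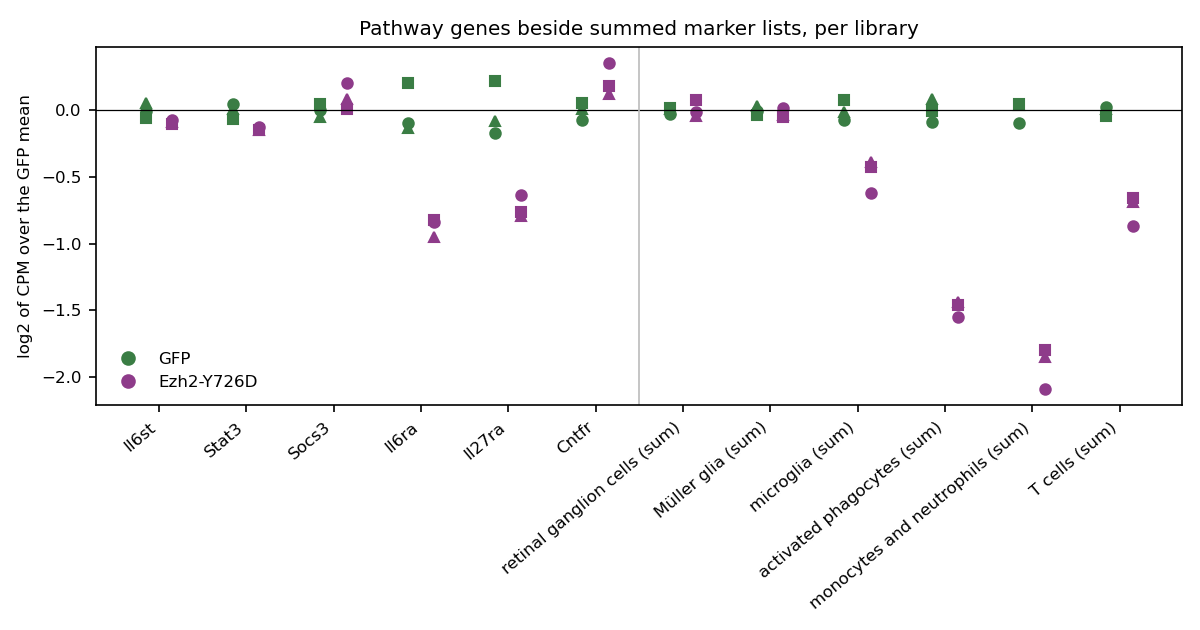
Level of 6 pathway genes (left) and of the summed markers of 6 cell types (right) in each library, as log2 of the CPM over the mean of the GFP libraries (green, GFP; purple, Ezh2-Y726D; circle, square and triangle for replicates 1, 2 and 3). Il6ra and Il27ra lie below GFP in all 3 Ezh2-Y726D libraries, as do the sums of the microglia, phagocyte, monocyte and T cell markers, while the RGC and Müller glia sums overlap between groups. Of the lists not drawn, the B cell, astrocyte, endothelial, pericyte, bipolar and cone sums were also below GFP, and the amacrine and rod sums above it.

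Stat3, the transcription factor through which gp130 signals (chr11:100885098-100939540, minus strand), fell by a small amount. It was at 224, 207 and 219 CPM in GFP and at 199, 195 and 196 CPM in Ezh2-Y726D. The groups were separated, and the Ezh2-Y726D libraries lay within 4 CPM of each other. Its log2 fold change was -0.14 ± 0.04, a difference of -9.38% with a 95% interval from -14.4% to -4.1% (adjusted p = 0.00734, edgeR). Without GFP replicate 1, the deepest GFP library, the log2 fold change was -0.11 and Stat3 was no longer called (adjusted p = 0.0793, edgeR). The 3′ end of Stat3 overlaps that of Stat5a on the opposite strand over 0.756% of its exonic bases.

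Socs3, a direct Stat3 target whose product blocks gp130 signalling (chr11:117966079-117970047, minus strand), had the highest fold change of the 8 tested members, but it was not called. It was at 60.7, 62.4 and 58.4 CPM in GFP and at 69.8, 61.1 and 64.3 CPM in Ezh2-Y726D. Replicate 1 of Ezh2-Y726D was the highest of the 6 libraries, and the lowest Ezh2-Y726D library lay below the highest GFP library. In edgeR's fit the log2 fold change was 0.10 ± 0.05 with a 95% interval from -0.01 to 0.22 (adjusted p = 0.172, edgeR). Leaving out Ezh2-Y726D replicate 1 gave 0.05, with an adjusted p of 0.588.

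Socs3 was the only member with a match to TTCNNNGAA among the 9 members with a promoter window in the RefSeq table (10 windows, since Lifr has 2). The table holds no window for Clcf1. The match, in capitals, starts 154 bases before the start site in chr11:117969317-117969616 (RefSeq, GRCm38.p6, minus strand). This RefSeq start site lies 85 bases from the nearest transcript start of Socs3 in GENCODE vM21, 180 bases from the nearest coding one, and the whole window lies inside the gene as annotated there, so the distance depends on the annotation. Of all 32851 windows of the same length, 8.3% hold a match on either strand. A match is a description of the letters in the window and does not show binding.

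Socs3 promoter window: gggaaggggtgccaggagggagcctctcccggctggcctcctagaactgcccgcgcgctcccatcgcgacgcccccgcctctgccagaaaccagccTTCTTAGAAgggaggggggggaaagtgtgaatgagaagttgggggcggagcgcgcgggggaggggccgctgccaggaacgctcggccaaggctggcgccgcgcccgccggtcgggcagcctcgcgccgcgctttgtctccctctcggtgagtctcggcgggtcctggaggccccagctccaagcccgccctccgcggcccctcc

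For the 3 most abundant members, the genes with the most similar profile were sought among 12245 other tested genes with a mean of at least 5 CPM, by the root mean square difference of centred log2(CPM + 1) values over the 6 libraries. For Il6st these were Rad23b (0.0123), Gga2 (0.0146) and Mrpl3 (0.0146), and for Stat3 they were Xbp1 (0.0137), Dennd6a (0.0139) and Stat5b (0.0144). For Socs3 they were Tmem44 (0.0198), Araf (0.02) and Arfrp1 (0.0211). Such profiles were common, since 780, 460 and 183 genes lay within 0.05 of Il6st, Stat3 and Socs3. A flat profile would lie at 0.0547 from Il6st, 0.0763 from Stat3 and 0.08 from Socs3. For Il6st the genes within 0.05 thus include nearly flat ones, and likeness to it says little. Stat5b lies on chromosome 11 beside Stat5a, which separates it from Stat3.

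The other genes of the pathway were taken from lists by role. Of 43 genes reported from these lists, 42 were found in the table and 39 were tested, of which 20 fell and 4 rose by edgeR's test, beside the 13.6% and 13.9% of all genes given above. Ctf2 was not analysed here. Their median log2 fold change was -0.18, below the 0.0019 of all genes tested. Only Myc, Il27ra and Icam1, all lower, also passed a fold change of 1.5.

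**Figure D4:**
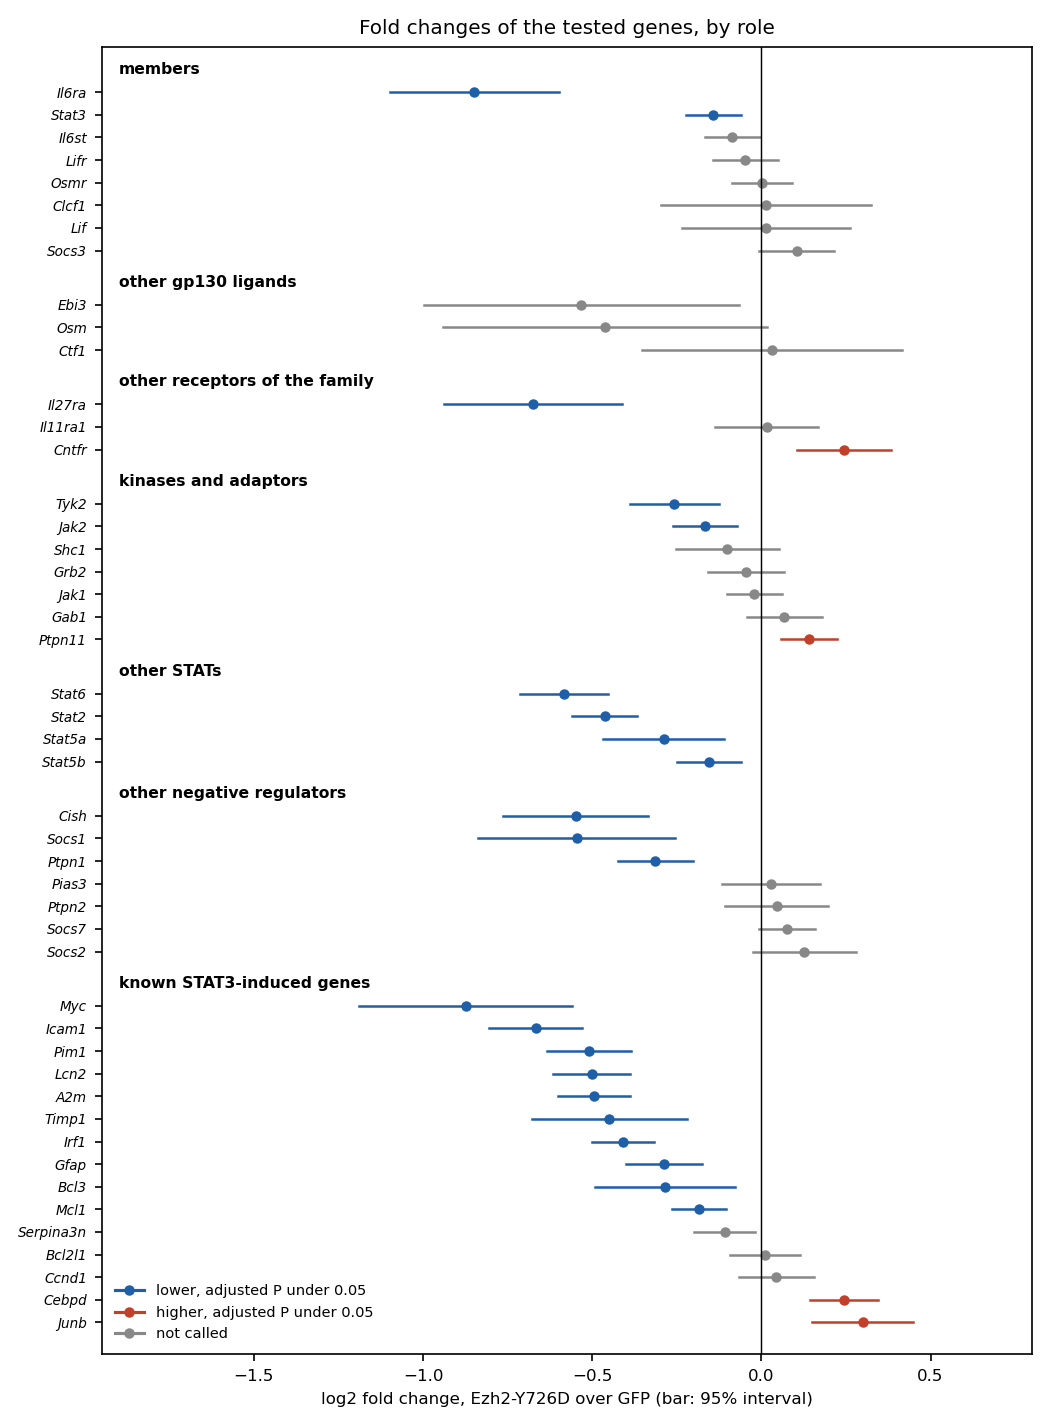
Log2 fold change of Ezh2-Y726D over GFP for the 8 tested members and 39 tested genes of the wider pathway, grouped by role, with bars for the 95% interval of edgeR's fit (blue, lower; red, higher; grey, not called at an adjusted P of 0.05). Of the 8 members only Il6ra and Stat3 are blue, as are the 4 other Stat genes and 10 of 15 Stat3-induced genes. Of all genes tested, 13.6% were lower.

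No ligand reported beyond the members was called. Of 5 ligand genes, Il11 and Il27 were below the filter, and Osm, Ctf1 and Ebi3 were tested. The largest difference was that of Ebi3, a subunit shared by interleukins of the family, at 1.99 to 2.71 CPM in GFP and 1.43 to 1.57 CPM in Ezh2-Y726D (log2 fold change -0.53 ± 0.23, adjusted p = 0.0846, edgeR). Osm, the ligand of Osmr, was at 1.33 to 2.74 CPM in GFP and 1.47 to 2.10 CPM in Ezh2-Y726D, and the groups overlapped.

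Ligand-specific receptors moved in both directions. Cntfr, the chain that binds Cntf and Clcf1 and is expressed by neurons, was at 31.3, 34.3 and 33.2 CPM in GFP and at 42.1, 37.4 and 35.9 CPM in Ezh2-Y726D. All Ezh2-Y726D libraries were above all GFP libraries, with replicate 1 the highest. Cntfr rose, with a log2 fold change of 0.24 ± 0.07 (adjusted p = 0.00641, edgeR). It was not called without GFP replicate 1 (0.19, adjusted p = 0.131) or without Ezh2-Y726D replicate 1 (0.17, adjusted p = 0.0502). All 5 amacrine cell markers rose in the same libraries, with sums of 575 to 646 CPM in GFP and 980 to 1012 CPM in Ezh2-Y726D, and their part in the higher Cntfr was not tested.

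Il27ra, the interleukin 27 receptor chain of lymphoid and myeloid cells, was at 7.47, 9.80 and 7.96 CPM in GFP and at 5.41, 4.95 and 4.85 CPM in Ezh2-Y726D. The groups were separated as for Il6ra. The leukocyte markers fell in the same libraries as given above, and their part in the lower Il27ra was not tested. Il27ra fell with a log2 fold change of -0.68 ± 0.13 (adjusted p = 0.000151, edgeR). Il11ra1, the interleukin 11 receptor chain, was at 21.1 to 23 CPM in GFP and 20.9 to 24 CPM in Ezh2-Y726D, with a 95% interval of the log2 fold change from -0.14 to 0.17.

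Of 7 kinases and adaptors, 2 fell and 1 rose, beside 13.6% lower and 13.9% higher of all genes tested. Jak1, the main kinase of gp130, was at 149 to 152 CPM in GFP and 145 to 154 CPM in Ezh2-Y726D, and the 95% interval of its log2 fold change ran from -0.10 to 0.06. Jak2 was at 86.9 to 92 CPM against 76.7 to 81.7 CPM, a log2 fold change of -0.17 ± 0.05 (adjusted p = 0.00707, edgeR). Tyk2, the third kinase bound by gp130, was at 28.7 to 34.2 CPM against 27 to 27.8 CPM, a log2 fold change of -0.26 ± 0.06 (adjusted p = 0.00289, edgeR). Ptpn11, which encodes the phosphatase Shp2 that links gp130 to the Ras pathway, was at 159 to 163 CPM in GFP and 173 to 185 CPM in Ezh2-Y726D, a log2 fold change of 0.14 ± 0.04 (adjusted p = 0.00795, edgeR). The call of Tyk2 was lost without GFP replicate 1 (adjusted p = 0.122, log2 fold change -0.19), and that of Ptpn11 without Ezh2-Y726D replicate 1 (adjusted p = 0.0514, log2 fold change 0.12). With GFP replicate 1 as the only GFP library, the log2 fold change was -0.14 for Jak2 and 0.13 for Ptpn11. After all libraries were thinned to the shallowest, Jak2 was at -0.30 (adjusted p = 0.00017, edgeR). Tyk2 (-0.24, adjusted p = 0.0635) and Ptpn11 (0.11, adjusted p = 0.113) were not called in that fit.

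The 4 other Stat genes reported all fell, beside 13.6% of all genes tested, and the larger differences were those of Stat6 and Stat2. Stat6, which mediates interleukin 4 and 13 signals, was at 37.7, 38.1 and 32.8 CPM in GFP and at 24.6, 24.1 and 24.8 CPM in Ezh2-Y726D (log2 fold change -0.58 ± 0.06, adjusted p = 2.56e-08, edgeR). Stat2, which acts in type I interferon signalling, was at 86.6, 87.8 and 92.7 CPM in GFP and at 63.3, 65.4 and 64 CPM in Ezh2-Y726D (-0.46 ± 0.05, adjusted p = 7.74e-09, edgeR). In these genes every Ezh2-Y726D library lay below every GFP library.

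The adjacent genes Stat5a and Stat5b, in the same stretch of chromosome 11 as Stat3, had smaller fold changes. Stat5b was at 82.4 to 87.9 CPM in GFP and 75.7 to 78.9 CPM in Ezh2-Y726D (log2 fold change -0.16 ± 0.05, adjusted p = 0.011, edgeR), close to the -0.14 of Stat3. Stat5a was at 13.9 to 17.8 CPM against 13.3 to 14.4 CPM, and these ranges overlapped (log2 fold change -0.29 ± 0.09, adjusted p = 0.0123, edgeR). Neither was called without GFP replicate 1 (adjusted p = 0.301 for Stat5a at -0.19 and 0.11 for Stat5b at -0.13) or without Ezh2-Y726D replicate 3 (0.0656 at -0.25 and 0.068 at -0.14), and Stat5a was not called by DESeq2 (-0.26, adjusted p = 0.153). Whether the Stat genes differed among themselves in fold change was not tested.

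Of 7 negative regulators other than Socs3, 3 fell and none rose, beside 13.6% and 13.9% of all genes tested. Cish, a Socs family member induced mainly by Stat5, was at 12, 10.7 and 10.9 CPM in GFP and at 7.14, 8.18 and 8.24 CPM in Ezh2-Y726D (log2 fold change -0.55 ± 0.10, adjusted p = 0.000145, edgeR). Ptpn1, a phosphatase that acts on Jak2 and Tyk2, was at 50.3 to 53.3 CPM against 41.8 to 42.6 CPM (-0.31 ± 0.05, adjusted p = 4.39e-05). The groups did not overlap for either gene. Socs1, an inhibitor induced by interferons, was at 8.49, 7.48 and 4.81 CPM in GFP and at 5.68, 5.10 and 4.81 CPM in Ezh2-Y726D (-0.55 ± 0.14, adjusted p = 0.00394). Its groups overlapped, and GFP replicate 3 was the lowest of all 6 libraries. Socs1 was not called without GFP replicate 1 (-0.28, adjusted p = 0.355), by DESeq2 (-0.47, adjusted p = 0.0993) or in edgeR's fit after all libraries were thinned to the shallowest (-0.43, adjusted p = 0.164). After thinning, Cish was not called either (-0.38, adjusted p = 0.0977). Socs2, Socs7, Pias3 and Ptpn2 were not called, with log2 fold changes between 0.03 and 0.13.

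Of 16 genes known to be induced by Stat3, 15 were tested, of which 10 fell, 2 rose and 3 were not called, with a median log2 fold change of -0.29. Of all genes tested, 13.6% fell and 13.9% rose. The largest falls were those of Myc, a regulator of growth, Icam1, an adhesion molecule for leukocytes, and Pim1, a survival kinase. Myc was at 5.65, 6.58 and 6.47 CPM in GFP and at 3.19, 2.74 and 3.76 CPM in Ezh2-Y726D (log2 fold change -0.87 ± 0.15, adjusted p = 5.2e-05, edgeR). Icam1 was at 33.1, 32 and 29.4 CPM in GFP and at 19.3, 20.8 and 20.5 CPM in Ezh2-Y726D (-0.67 ± 0.07, adjusted p = 6.29e-09). For Pim1 the levels were 45.2, 43.9 and 44 CPM in GFP and 33.7, 29.8 and 30.3 CPM in Ezh2-Y726D (-0.51 ± 0.06, adjusted p = 1.57e-07). In none of the 3 genes did the groups overlap. The other genes that fell were Irf1, Gfap, Lcn2, Timp1, A2m, Bcl3 and Mcl1. Of these, Bcl3 (-0.28, adjusted p = 0.0354) was not called by DESeq2 (adjusted p = 0.128), with GFP replicate 1 as the only GFP library (0.264), or without GFP replicate 2 (0.0515) or 3 (0.157) or Ezh2-Y726D replicate 2 (0.0641) or 3 (0.12).

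Both genes that rose encode transcription factors that are switched on early after a stimulus. Junb was at 129, 110 and 118 CPM in GFP and at 176, 130 and 138 CPM in Ezh2-Y726D (log2 fold change 0.30 ± 0.07, adjusted p = 0.00202, edgeR). Cebpd was at 167, 143 and 158 CPM in GFP and at 198, 177 and 183 CPM in Ezh2-Y726D (0.24 ± 0.05, adjusted p = 0.000283). Replicate 1 of Ezh2-Y726D was the highest library for both genes, as it was for Socs3, Lif and Cntfr. Without that library the log2 fold change of Junb was 0.16. Junb was not called by DESeq2 (0.32, adjusted p = 0.138) or with GFP replicate 1 as the only GFP library (0.20, adjusted p = 0.0942, edgeR).

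Some of the genes named from these lists overlap another gene on the opposite strand, over 23.4% of the exonic bases of Ebi3, 15% of Cebpd, 14.5% of Pim1, 11.7% of Icam1, 11.5% of Cish, 8.07% of Tyk2 and 7.52% of Junb, and reads there cannot be assigned with certainty. The Stat3-induced genes are induced by other factors as well and are expressed by several cell types of the retina. Gfap is also one of the 4 astrocyte markers, whose sum was 288 to 327 CPM in GFP and 240 to 285 CPM in Ezh2-Y726D. Most of that sum is Gfap itself (mean 229.9 CPM in GFP and 188 CPM in Ezh2-Y726D). Of the other astrocyte markers S100b fell, Aldh1l1 was not called (log2 fold change -0.05, adjusted p = 0.511, edgeR) and Pax2 was below the filter. The leukocyte markers fell as given for Il6ra. Their part in the lower levels of the kinases, the Stat genes, the negative regulators and the Stat3-induced genes was not tested.

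Among the 12 Stat3-induced genes with a RefSeq window, 3 held a match to TTCNNNGAA (Irf1, Icam1 and Gfap), and of the remaining listed genes with a window Gab1 and Cish did. This made 5 of 32 reported genes, where a gene counts if any of its windows (49 in all) holds a match. The 8.3% given above is a share of windows and not of genes, so the 2 are not alike. Irf1 also has a window without a match. The windows of Icam1 and Irf1 are shown, with matches in capitals, as 2 examples of genes that fell and hold a match. Gfap and Cish, which also fell, are others. The Icam1 match starts 42 bases before the start site in chr9:21015690-21015989 (plus strand), and the Irf1 match starts 90 bases before it in chr11:53769764-53770063 (plus strand). Icam1, Gfap and Cish also hold the tighter form TTCCNGGAA, as do 1.15% of all windows. Irf1, an interferon response factor, was at 108 to 114 CPM in GFP and at 80.3 to 85.6 CPM in Ezh2-Y726D.

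Icam1 promoter window: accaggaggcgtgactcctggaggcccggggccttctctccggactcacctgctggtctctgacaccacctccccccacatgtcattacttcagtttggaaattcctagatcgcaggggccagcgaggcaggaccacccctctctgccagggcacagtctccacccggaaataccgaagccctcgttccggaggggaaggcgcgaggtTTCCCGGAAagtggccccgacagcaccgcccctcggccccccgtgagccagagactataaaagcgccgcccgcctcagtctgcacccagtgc

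Irf1 promoter window: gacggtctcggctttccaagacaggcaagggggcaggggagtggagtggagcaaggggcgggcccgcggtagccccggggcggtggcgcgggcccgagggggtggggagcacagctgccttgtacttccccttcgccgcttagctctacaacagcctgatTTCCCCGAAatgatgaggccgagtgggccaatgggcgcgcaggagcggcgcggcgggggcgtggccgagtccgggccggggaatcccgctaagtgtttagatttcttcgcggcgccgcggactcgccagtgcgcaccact

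The Icam1 and Irf1 windows thus carry the same form of site as that of Socs3, whose level was not called as changed. No further relation between the sites and the fold changes was tested.

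**Figure D5:**
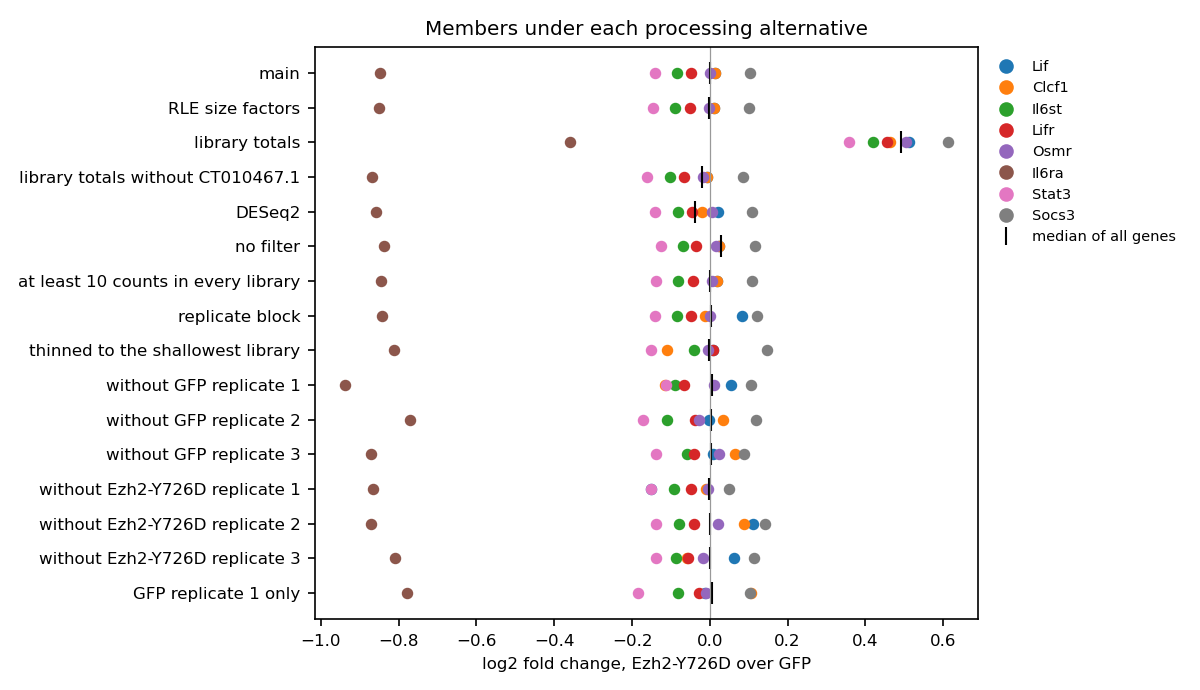
Log2 fold change of Ezh2-Y726D over GFP for the 8 tested members under each way of processing the counts (colours, genes; black bar, median of all genes tested in that fit). Il6ra is the lowest member in every fit, and scaling by library totals moves all members together with the median of all genes, which is then 0.492.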

How the data were processed

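RNA-Seq libraries of CD90.2 positive, viable retinal cells were prepared with a kit for stranded total RNA. The table deposited by the authors gives raw counts, as whole numbers and not normalized, for each Ensembl gene. The submitters' processing notes name STAR 2.7.0d and GRCm38, and the counting tool, annotation, use of strand and filters are not given in the sources used here. Without a known strand setting, genes that overlap on opposite strands cannot be separated. All 6 columns were used, and each was matched by its name to a sample label.

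Of 32371 identifiers, 32325 received a symbol from a gene name table. Coordinates and exonic lengths were taken from GENCODE vM21 (GRCm38), where 32342 identifiers were found, and promoter windows from RefSeq (GRCm38.p6). Groups were compared by the quasi-likelihood test of edgeR 4.0.16 (R 4.3.3) with TMM factors, filterByExpr (10 counts, total 15) and Benjamini-Hochberg adjustment over 18138 genes. Each SE is the size of the log2 fold change over the root of its F statistic, and 95% intervals use the t distribution with the fit's degrees of freedom. CPM were computed from the counts with TMM-scaled library sizes. The test was checked on simulated data. Total counts were 9333244 to 23782520, and 4460732 to 22024582 without CT010467.1. The SEs of members' log2 fold changes ran from 0.04 for Il6st to 0.15 for Clcf1. Differences within groups (chi-square per degree of freedom from 1.49 to 3.03) gave no sign of a duplicated library.

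Members and gene lists, the latter including 14 lists of cell type markers, were chosen with earlier results of these data known. Some further items are not reported here and are left out of the list counts. All members are named, with every called gene of the ligand, receptor, kinase, Stat and negative regulator lists, and the 3 largest rises and falls among called Stat3-induced genes. Ebi3, Osm, Jak1, Il11ra1, the other uncalled or called list genes named without full values, Irf1, and single marker genes were named after their values were seen. Sums over the remaining marker lists were 757 to 800 CPM in GFP and 686 to 738 CPM in Ezh2-Y726D for 4 endothelial markers (nearly all of it Kdr, since Cldn5, Pecam1 and Cdh5 were each under 10 CPM), 204 to 221 and 159 to 172 CPM for 5 pericyte markers, 848 to 866 and 714 to 736 CPM for 5 bipolar markers, and 262 to 277 and 170 to 181 CPM for 3 cone markers. Alternatives were RLE factors, library totals with and without the rRNA gene CT010467.1, DESeq2 1.42.0, no filter, 10 counts in every library, a replicate block, thinning to the shallowest library, leaving out each library, GFP replicate 1 as the only control, and a fold change over 1.5.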

Additional observations from a re-analysis of the deposited data

How the results depend on the processing

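The 2 called members stayed at 2 under RLE factors, DESeq2, no filter, a minimum of 10 counts and thinning, were 3 (all lower) under library totals without CT010467.1, and 1 (Il6ra) when a fold change over 1.5 was also required. Leaving out 1 library gave 1 or 2, with 1 without GFP replicate 1. Under library totals the median of all genes moved to 0.492 and the median of the members to 0.461, with 0 members (higher or lower) and 0 of the 39 listed genes called by edgeR. Over all genes tested that fit called 65 genes, against 4988. Relative to that median Il6ra was at -0.85 and Stat3 at -0.14. Without the shift removed, signs turned for Il6st (0.421), Lifr (0.457), Stat3 (0.357), Jak2 (0.34), Tyk2 (0.254), Stat2 (0.0421), Stat5a (0.228), Stat5b (0.347), Ptpn1 (0.19), Lcn2 (0.0012), A2m (0.017), Timp1 (0.034), Irf1 (0.0953), Gfap (0.221), Bcl3 (0.188) and Mcl1 (0.321). No member was called higher in any fit. The listed pathway genes called were 24, of which 3 passed a fold change over 1.5, 17 after thinning and 19 to 24 when 1 library was left out. The median of the members ranged from -0.0773 to -0.0088 when 1 library was left out.

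Signs of uncalled members turned elsewhere as well. Under library totals without CT010467.1 Lif was at -0.0067, Clcf1 at -0.0072 and Osmr at -0.018. After thinning Clcf1 was at -0.11, Lifr at 0.0085 and Osmr at -0.0038. Clcf1 was at -0.0203 under DESeq2, Osmr at -0.0017 under RLE factors, and with GFP replicate 1 as the only control Lif was at -0.013 and Osmr at -0.0096. Leaving out 1 library gave ranges of -0.15 to 0.11 for Lif, -0.116 to 0.0881 for Clcf1 and -0.0282 to 0.023 for Osmr. Among the other listed genes named in the report, calls were lost after thinning for Cntfr (0.20), Tyk2 (-0.24), Ptpn11 (0.11), Stat5a (-0.25), Stat5b (-0.12), Socs1 (-0.43), Cish (-0.38) and Bcl3 (-0.25), and under DESeq2 for Stat5a (-0.26), Socs1 (-0.47), Bcl3 (-0.31) and Junb (0.32). The cause was not tested.

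With the replicate number as a block, 2 members and 24 listed genes were called and the median of the members was -0.03. Only Clcf1 turned sign, to -0.012. Over all genes tested it called 5222, against 4988. The correlations of same-numbered deviations were 0.14, 0.051 and 0.039, each above those of different numbers across groups (-0.079 to 0.026), so every library correlated best with its own number. This is a hint from the data and not from the design. Since they were not all over 0.1, the numbers were not taken to pair the libraries. Depth limits Il6 and Cntf most, which had between 0 and 17 counts in a library.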
